A study of Mus musculus with 24 samples.

Results

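The sarcomeric myosin heavy chains of *M. gastrocnemius* were read in mice kept in normoxia (Norm) or exposed to hypoxia (Hypox). The genes considered are the 8 muscle myosin heavy chains *Myh7*, *Myh7b*, *Myh6*, *Myh2*, *Myh1*, *Myh4*, *Myh8* and *Myh3*, chosen as the non-control probes that carry one of these names on the array. They were read by 13 of 55681 probes, and 10 of the 13 were among the 14312 probes whose mean Cy5 signal exceeded 2 times the local background. All 8 genes kept at least 1 such probe, among 9139 genes tested. The animals were male C57BL/6JOlaHsd mice, 10 weeks old at arrival and housed singly, that received a low-fat diet (10% of energy from fat) for 3 weeks and a high-fat diet (40% of energy from fat) for the following 6 weeks, and were then fasted. The 12 Norm mice breathed 20.9% oxygen and the 12 Hypox mice 12% oxygen for 6 h, so that high-fat feeding and fasting are common to both groups. The RNA of 1 mouse per array was labelled with Cy5 and hybridised against a Cy3-labelled pool of all samples. Every expression value below is therefore the log2 ratio of 1 mouse to that pool, after loess normalization within the array, unless another scale is named.

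A sarcomeric myosin heavy chain is the motor of the thick filament, and the isoform that a fiber carries sets how fast it shortens and how much ATP it uses. *Myh7* encodes the slow (type I, beta-cardiac) isoform, *Myh2*, *Myh1* and *Myh4* encode the adult fast isoforms of type IIA, IIX and IIB fibers, and *Myh8* and *Myh3* encode the perinatal and embryonic isoforms that are made during development and regeneration. *Myh6* encodes the alpha-cardiac isoform and *Myh7b* an ancient slow-type myosin whose gene hosts a microRNA. The mouse *M. gastrocnemius* is a mostly fast, type IIB-rich muscle with a small slow and oxidative portion.

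*Myh3*, *Myh2*, *Myh1*, *Myh4* and *Myh8* form a cluster on chromosome 11, and *Myh6* and *Myh7* lie next to each other on chromosome 14. In the RefSeq promoter windows of build GRCm38.p6, which run from 250 bases before to 50 bases after a gene's start, the upstream parts of *Myh2*, *Myh1*, *Myh4* and *Myh8* share a run of 14 bases. It was found in 4 of 32851 windows on either strand (0.0122%), those of these 4 genes. *Myh1*, *Myh4* and *Myh8* share a further run of 15 bases that holds a MEF2 motif and occurs in 3 of the 32851 windows (0.00913%). The stretches are shown because they hold the longest runs that these genes have in common before their starts, with the shared runs in capitals (chr11:67170857-67170930, chr11:67199871-67199970, chr11:67237610-67237682 and chr11:67277005-67277098, plus strand).
Myh2: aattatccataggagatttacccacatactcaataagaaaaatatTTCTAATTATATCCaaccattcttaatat
Myh1: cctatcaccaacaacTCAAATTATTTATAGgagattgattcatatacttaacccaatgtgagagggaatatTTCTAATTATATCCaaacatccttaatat
Myh4: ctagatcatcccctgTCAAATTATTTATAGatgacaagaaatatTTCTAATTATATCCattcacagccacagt
Myh8: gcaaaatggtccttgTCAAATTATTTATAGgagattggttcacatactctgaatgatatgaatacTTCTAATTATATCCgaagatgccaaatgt
The shared run of 14 bases ended 111 bases before the annotated start in *Myh2*, 146 in *Myh1*, 144 in *Myh4* and 40 in *Myh8*. Searched on both strands of the whole window, the MEF2 motif was present for 3 of the 8 genes (*Myh1*, *Myh4* and *Myh8*) against 3.19% of all windows, and TATAAA for 6 of the 8 (*Myh6*, *Myh2*, *Myh1*, *Myh4*, *Myh8* and *Myh3*) against 13.6%. CANNTG, the E-box of the MyoD family, was present for 6 of the 8 against 72.3% of all windows, CATTCC, bound by TEAD factors, for 3 of the 8 against 14.7%, and the CArG motif for 1 of the 8 against 1.63%. For *Myh7*, which has 2 annotated starts, the window of the one farther along the gene was taken. The longest run common to the upstream parts of *Myh7* and *Myh7b* had 10 bases and was found in 30 windows (0.0913%). These matches describe letters, and no factor was measured at them here.

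In RefSeq (GRCm38.p6) 4 microRNA genes lie inside *Myh7b*, *Myh6*, *Myh7* and *Myh3*. A mature sequence of each in the 3 slow and cardiac genes is shown, because these have near-identical seeds, with the seed, bases 2 to 8, in capitals.
Myh7b, mmu-miR-499-5p: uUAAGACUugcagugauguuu
Myh6, mmu-miR-208a-3p: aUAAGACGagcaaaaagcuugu
Myh7, mmu-miR-208b-3p: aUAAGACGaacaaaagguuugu
The seeds of miR-208a-3p and miR-208b-3p agree at 7 of 7 bases, and those of miR-499-5p and miR-208b-3p at 6 of 7. The levels of these microRNAs were not analysed here.

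The muscle heavy chains are closely similar over much of their coding sequence, so the place of a probe matters. The probes of *Myh7* (transcript base 5938, chr14:55589581-55589640), *Myh1* (base 5943, chr11:67038002-67038061) and *Myh4* (base 5901, chr11:67073834-67073893) hold a stop codon in every forward reading frame, and those of *Myh6* (base 6003, chr14:55560774-55560833), *Myh2* (base 6023, chr11:67010960-67011019) and both of *Myh3* (base 5922, chr11:66915724-66915783, and base 5779, chr11:66915107-66915166) hold the letters AATAAA (all positions in mm9). These are the letters of the polyadenylation signal, and whether they act as one was not tested. The probes of *Myh6* and of *Myh3* at base 5779 also leave 2 frames open and that of *Myh2* 1, so the *Myh3* probe at base 5779 may lie in coding sequence. The probe of *Myh7b* (base 5734, chr2:155459122-155459181) and both measurable probes of *Myh8* (base 5937, chr11:67121925-67121984, and base 477, chr11:67093475-67093534) leave at least 1 reading frame open throughout and hold no AATAAA. They are shown whole, as the target letters behind the values of these 2 genes.
Myh7b, base 5734: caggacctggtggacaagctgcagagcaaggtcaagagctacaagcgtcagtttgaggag
Myh8, base 5937: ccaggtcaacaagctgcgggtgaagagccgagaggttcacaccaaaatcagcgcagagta
Myh8, base 477: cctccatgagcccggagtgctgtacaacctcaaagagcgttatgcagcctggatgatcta
Laid side by side without gaps over at least 30 bases, no 2 of the 13 probes matched at more than 60.4% of their bases. That match was between *Myh8* at base 5937 and *Myh3* at base 5779. Whether a probe also binds the transcript of another myosin gene was not tested, since no transcript sequences were used here. This bears most on *Myh8*, whose probe at base 5937 was bright on all 24 arrays. It averaged 3240 times background in Cy5, above the *Myh4* probe at 2310, while the *Myh8* probe at base 477 averaged 57.2. The other 2 *Myh8* probes, designed on transcript models of the same gene, were not above 2 times background. They were well above background in Cy5 on 1 and 0 of the 24 arrays.

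Each of 6 slides carried 4 arrays, 2 of either group. Slide 1 stood apart, with a mean Cy5 signal of 58.3 to 102 per array against 124 to 1010 on the other slides. It held the highest ratios of the fast myosins, so values without it are given as well. On the identity of the tissue, 8 of 8 skeletal muscle markers were tested, while of 7 heart markers *Nppa*, *Nppb*, *Myl7*, *Tnni3* and *Ryr2* did not exceed 2 times background.

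After adjustment no member of the family passed 0.05 for a difference between Hypox and Norm. *Myh7b* and *Myh3* were higher in Hypox with p under 0.05 and 0 of the 8 genes passed after Benjamini-Hochberg adjustment over all genes (limma's moderated test). The 2 of 8 genes stand beside 12.2% of all 9139 genes that passed 0.05 without adjustment (7.17% higher and 5.07% lower in Hypox), and 0.339% that passed with adjustment. Run on the ratios, the methods' t-test passed 0 of the 8 without adjustment and 0 with it, against 12.2% of all genes without adjustment. On the deposited values it passed 2 of the 8 without adjustment, *Myh7b* higher (p = 0.0444) and *Myh6* lower (p = 0.0262), against 5.65% of all genes. Among the 8 genes 3 were higher and 5 lower, while 58.8% of all genes were higher, with a median of 0.029. The split of the 8 genes was 4 higher and 4 lower in the processed signals and in Cy5 alone, 7 and 1 in the deposited values, and 8 and 0 with median centring. A p-value that misses the threshold does not show that the groups were alike.

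*Myh7*, the slow isoform, lay between -2.90 and 0.57 in the Norm mice, with a median of -0.27, and between -0.91 and 0.13 in the Hypox mice, with a median of -0.083. The Norm mean was -0.54 ± 0.90 (SD, n = 12) and the Hypox mean -0.17 ± 0.30 (SD, n = 12), which gave a log2 fold change of 0.38 (standard error 0.25, 95% interval -0.13 to 0.89, limma p = 0.142, adjusted p = 0.556). The groups overlapped, with 10 of 12 Hypox mice above the Norm median, and Norm held both the lowest and the highest array. The difference between group means was positive on 3 of 6 slides, from -0.26 to 1.73. The largest came from slide 5, which carries the lowest *Myh7* array, Norm replicate 5. Without that array the log2 fold change was 0.16 (p = 0.338).

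*Myh7b*, which encodes a slow-type heavy chain, lay between -1.25 and 0.29 in the Norm mice, with a median of -0.38, and between -0.40 and 0.16 in the Hypox mice, with a median of -0.21. The Norm mean was -0.41 ± 0.44 (SD, n = 12) and the Hypox mean -0.14 ± 0.19 (SD, n = 12), and the log2 fold change of 0.27 (standard error 0.13, 95% interval 0.0024 to 0.53) had p = 0.0481 and, after adjustment, 0.403 by limma. Here 11 of 12 Hypox mice lay above the Norm median, but the difference was positive on only 3 of 6 slides (-0.19 to 0.85). Norm replicate 5 again had the lowest value, and without it the change was 0.19 (p = 0.106). Its probe was well above background in Cy5 on 21 of 24 arrays. In both genes the Norm mice were spread more widely than the Hypox mice, a difference in spread that was not tested.

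*Myh6*, the alpha-cardiac isoform, went the other way within the slow and cardiac group. It lay between -0.30 and 0.34 in the Norm mice, with a median of 0.16, and between -0.38 and 0.24 in the Hypox mice, with a median of 0.017, with a log2 fold change of -0.14 (standard error 0.080, 95% interval -0.31 to 0.020, limma p = 0.0840, adjusted p = 0.475). Without Norm replicate 5 it was -0.18 (p = 0.0228). The groups overlapped over most of their range, and 10 of 12 Hypox mice lay below the Norm median. The probe was dim, well above background on 17 of 24 arrays, and a second *Myh6* probe at base 308 was well above background on 1 of 24.

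**Figure D1:**
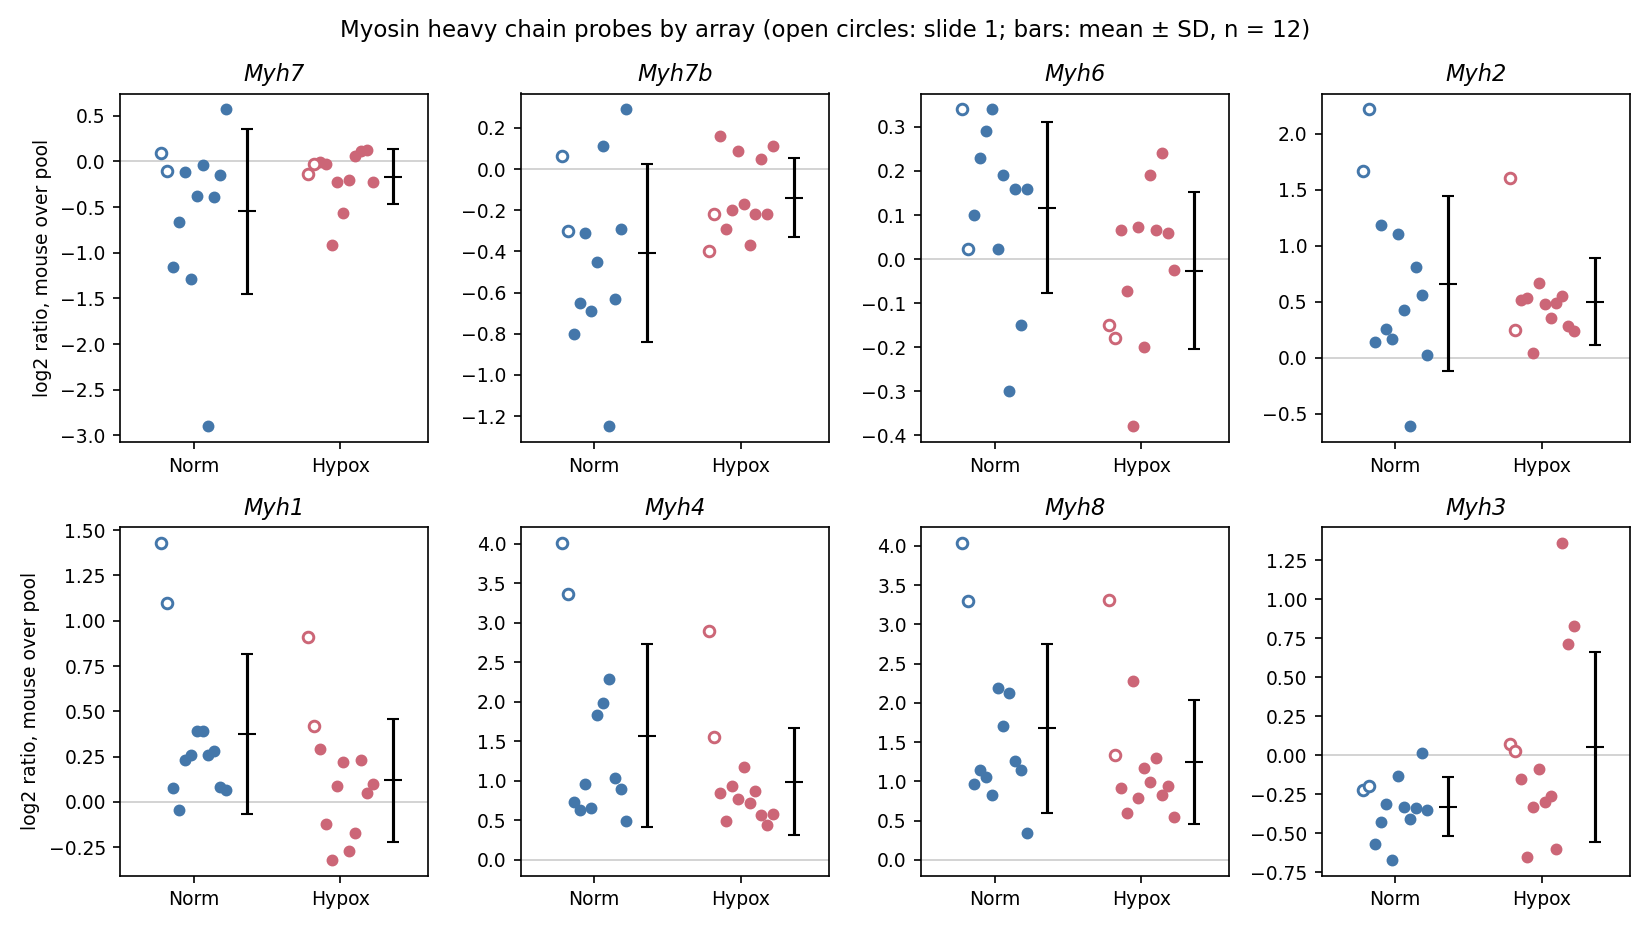
Log2 ratio of each mouse to the reference pool (y axis, own range per panel) for 8 myosin heavy chain genes in 12 Norm (blue) and 12 Hypox (red) arrays, with open circles for slide 1 and the mean ± SD beside each group. The groups overlap in every panel, Norm replicate 5 is the lone point at -2.90 for *Myh7*, and the open circles of slide 1 reach 4.01 for *Myh4*.

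The adult fast isoforms all had a negative log2 fold change on this scale, and none passed the test. *Myh4*, the type IIB isoform, lay between 0.49 and 4.01 in the Norm mice, with a median of 0.99, and between 0.44 and 2.89 in the Hypox mice, with a median of 0.80, a log2 fold change of -0.59 (standard error 0.35, 95% interval -1.30 to 0.13, limma p = 0.102, adjusted p = 0.507). The groups overlapped, with 9 of 12 Hypox mice below the Norm median and 2 below every Norm mouse. *Myh1*, the type IIX isoform, lay between -0.044 and 1.43 in the Norm mice, with a median of 0.26, and between -0.32 and 0.91 in the Hypox mice, with a median of 0.093, a log2 fold change of -0.26 (standard error 0.15, 95% interval -0.57 to 0.047, limma p = 0.0939, adjusted p = 0.492). Again 9 of 12 Hypox mice lay below the Norm median, and 4 lay below every Norm mouse. *Myh2*, the type IIA isoform, lay between -0.61 and 2.22 in the Norm mice, with a median of 0.50, and between 0.044 and 1.61 in the Hypox mice, with a median of 0.48, with a log2 fold change of -0.16 (standard error 0.23, 95% interval -0.63 to 0.31, limma p = 0.488, adjusted p = 0.798). Its Hypox values lay wholly inside the Norm range.

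Much of the spread of the fast isoforms lay between slides. The 4 arrays of slide 1 had *Myh4* ratios of 1.56 to 4.01, against 0.44 to 2.29 on the other slides. *Myh1* reached 0.42 to 1.43 on slide 1 and -0.32 to 0.39 elsewhere. Without slide 1 the SD within groups fell to 0.48 for *Myh4* and 0.19 for *Myh1*, from 0.95 and 0.39. With the slide as a block, *Myh4* (p = 0.00333, adjusted p = 0.139) and *Myh1* (p = 0.00984, adjusted p = 0.194) passed 0.05 without adjustment in limma, as did *Myh7b* (p = 0.0453) and *Myh3* (p = 0.0213), that is 4 of 8 genes against 14.2% of all genes. After adjustment 0 of the 8 passed with this block, against 0.766% of all genes. On the loess scale the difference of group means was negative on 5 of 6 slides for *Myh4* and for *Myh1*. Without slide 1 the log2 fold change of *Myh4* was -0.41 (p = 0.0403), that of *Myh1* -0.19 (p = 0.0397) and that of *Myh2* 0.011 (p = 0.949). The part of the dim Cy5 signal of slide 1 in these values was not tested.

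The direction of the fast isoforms also depended on how the signals were scaled, and no direction is given for them for that reason beyond the loess scale. From the scanner software's processed signals, which it had background-subtracted and dye-normalized itself, the log2 fold change of *Myh4* was -0.11 (p = 0.242), of *Myh1* -0.067 (p = 0.412) and of *Myh2* 0.048 (p = 0.742). In the authors' deposited values they were 0.073, 0.20 and 0.37 with p = 0.813, 0.550 and 0.358 by limma. With each array centred on its median, which moved the median of all genes to 0.25, *Myh4* came to 0.26, close to that shift, and *Myh1* and *Myh2* to 0.38 and 0.54. *Myh7*, *Myh7b* and *Myh3* were higher in Hypox on all 5 scalings, from 0.38 to 0.85, from 0.18 to 0.46 and from 0.35 to 0.68, although the 5 share the same arrays.

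**Figure D2:**
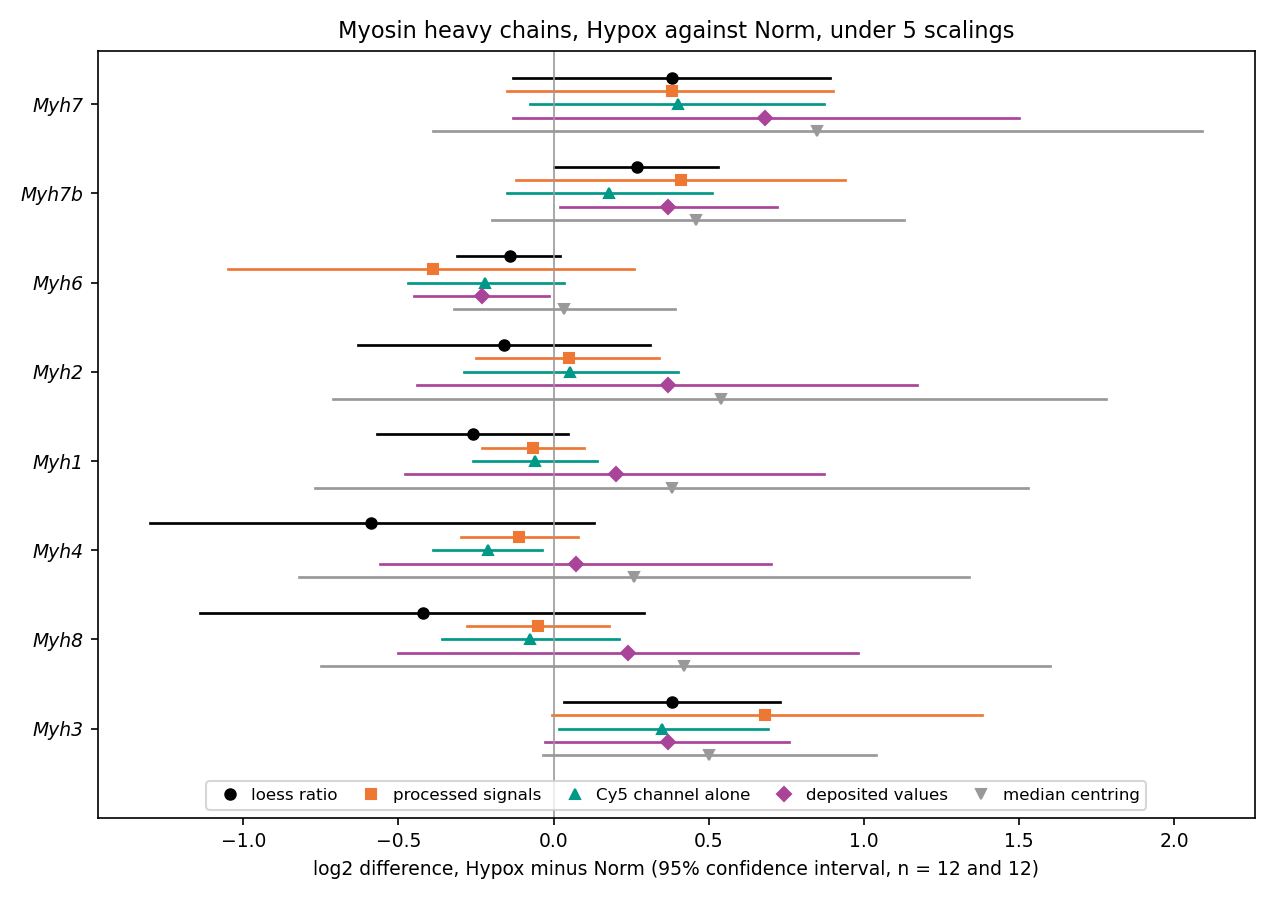
Log2 difference of Hypox minus Norm (x axis) with its 95% confidence interval from limma for 8 genes (rows) under 5 scalings of the same 24 arrays, 12 per group. The markers of *Myh7*, *Myh7b* and *Myh3* lie right of 0 throughout, while *Myh4* runs from -0.59 with loess to 0.26 with median centring.

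Of the developmental isoforms, *Myh3* was the one with the smallest p-value of the 8 genes. The embryonic isoform lay between -0.67 and 0.017 in the Norm mice, with a median of -0.34, and between -0.65 and 1.36 in the Hypox mice, with a median of -0.12. The Norm mean was -0.33 ± 0.19 (SD, n = 12) and the Hypox mean 0.051 ± 0.61 (SD, n = 12), which gave a log2 fold change of 0.38 (standard error 0.17, 95% interval 0.032 to 0.73, limma p = 0.0335, adjusted p = 0.353). In 5 of 12 Hypox mice the value lay above every Norm mouse and the other Hypox mice overlapped the Norm range. The highest were Hypox replicate 11 on slide 5 (1.36) and Hypox replicates 9 and 7 on slide 6 (0.83 and 0.71). The difference was positive on 5 of 6 slides (-0.046 to 0.93), and without slide 6 it was 0.27 (p = 0.129).

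The other *Myh3* probe, at base 5779, gave a log2 fold change of 0.37 (standard error 0.15, limma p = 0.0231, adjusted p = 0.266 over 14312 probes, of which 14.1% passed 0.05 without adjustment, 7.48% higher and 6.57% lower in Hypox, and 0.999% with it). The 2 *Myh3* probes followed each other across the 24 arrays as deviations from their group means (r = 0.89, within slides 0.94), which describes 2 readings of the same samples. Both were dim, well above background on 15 and 11 of 24 arrays.

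Genes of early muscle development were read beside *Myh3*. *Myog*, the myogenic factor of differentiating myoblasts and the 1 of 5 markers of satellite cells or regenerating fibers that was tested, lay between -0.18 and 0.038 in the Norm mice and between -0.086 and 0.48 in the Hypox mice (log2 fold change 0.23, limma p = 0.000658, adjusted p = 0.0899). Its probe averaged 2.1 times background and was well above it on 8 of 24 arrays. Its deviations from the group means had r = 0.64 with those of *Myh3* over 24 arrays, given as a description. *Pax7*, *Myf5*, *Myod1* and *Ncam1* did not exceed 2 times background. The tested heart markers *Myl4* and *Tnnt2*, a light chain and a troponin T that developing skeletal muscle also makes, had log2 fold changes of 0.28 (p = 0.0232, adjusted p = 0.311) and 0.18 (p = 0.0368, adjusted p = 0.364) by limma. Their mean ratio per array lay between -0.45 and -0.21 in the Norm mice and between -0.45 and 0.40 in the Hypox mice. With *Myh3* they had lower r than *Myog*, 0.41 for *Myl4* and 0.37 for *Tnnt2*. The part of other cells in the *Myh3* values was not tested, and in RNA of whole muscle more cells of a type and more RNA per cell cannot be told apart.

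*Myh8*, the perinatal isoform, had 2 measurable probes with negative log2 fold changes on the loess scale, of which 1 passed 0.05 without adjustment. At base 5937 the ratio lay between 0.34 and 4.04 in the Norm mice, with a median of 1.21, and between 0.55 and 3.31 in the Hypox mice, with a median of 0.97, with a log2 fold change of -0.42 (standard error 0.35, limma p = 0.233, adjusted p = 0.638). Without slide 1 this value was -0.24 (p = 0.265). At base 477 it lay between -0.33 and 0.82 in the Norm mice and between -0.94 and 0.12 in the Hypox mice, with a log2 fold change of -0.53 (standard error 0.14, 95% interval -0.82 to -0.23, limma p = 0.00106, adjusted p = 0.0697 over all probes). Across the 24 arrays the deviations of these 2 probes had r = 0.19, with 0.68 within slides and 0.53 without slide 1. In the deposited values the probe at base 5937 was higher in Hypox by 0.24 and that at base 477 lower by the difference -0.28 (p = 0.534 and 0.414 by the methods' t-test), so that the sign at base 5937 depended on the scaling.

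Beyond the comparison of groups, 7 of the 8 genes had an SD within groups above the median of all genes on the loess scale. The SD within groups was 0.95 for *Myh4* and for *Myh8*, 0.67 for *Myh7*, 0.62 for *Myh2*, 0.45 for *Myh3*, 0.39 for *Myh1*, 0.34 for *Myh7b* and 0.19 for *Myh6*, against a median of 0.23 over all genes. Without slide 1 it was 0.54 for *Myh8* and 0.40 for *Myh2*. That of *Myh4* was larger than the SD of 99.7% of the genes tested and that of *Myh7* larger than 98.9%. In the processed signals the SD of *Myh7* was 0.65, above that of 79.9% of genes, while that of *Myh4* was 0.20, above 13.2% of genes only. Those of *Myh1* and *Myh8* were above 7.17% and 26.7% of genes there. In the deposited values the SD of *Myh7* was 1.03 and that of *Myh4* 0.79, and in the Cy5 channel alone they were 0.65 and 0.18. The spread of *Myh7* was thus at least 0.65 on each of these scales, while that of *Myh4* ranged from 0.18 to 0.95. All these values of *Myh7* include Norm replicate 5, its lowest array. On the loess scale the SD of *Myh7* was 0.90 in Norm, 0.54 in Norm without that mouse and 0.30 in Hypox. In Hypox it was 0.25 in the processed signals and 0.32 in Cy5 alone.

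Across mice the slow myosins varied together. As deviations from the group means over 24 arrays, *Myh7* and *Myh7b* had r = 0.80 (permutation of arrays within groups, p = 2e-05, adjusted p = 0.000187 over 28 pairs) and rho = 0.68 (permutation p = 0.00098, adjusted p = 0.00915). Leaving out Norm replicates 5 and 12, the mice farthest from the median of *Myh7*, gave r = 0.59. With slide means removed as well it was 0.68 (exact sign flips of 12 differences, p = 0.0308, adjusted p = 0.216), and without slide 1 it was 0.81. It was 0.71 in the processed signals, 0.59 in Cy5 alone and 0.86 in the deposited values. Within Norm alone r was 0.91 and within Hypox alone 0.08, and the difference between the groups was not tested. *Myh6* followed *Myh7* with r = 0.50 over all arrays (permutation p = 0.0201, adjusted p = 0.0702), with rho = 0.26 (permutation p = 0.228), and with r = 0.69 within slides (exact p = 0.0161, adjusted p = 0.15). It was 0.23 without Norm replicates 5 and 12, 0.52 without slide 1, 0.49 within Norm alone and 0.72 within Hypox alone.

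For pairs that hold a fast isoform no correlation over all 24 arrays is read, since the 4 arrays of slide 1 form a cluster of their own. Over the other 20 arrays *Myh4* and *Myh8* (base 5937) had r = 0.78, and within slides 0.79 over 24 arrays (exact p = 0.00830, adjusted p = 0.116). Whether this *Myh8* probe also binds the *Myh4* transcript was not tested, so this r is not read as 2 genes varying together. With the *Myh8* probe at base 477 the base 5937 probe had r = 0.53 without slide 1 and 0.68 within slides. *Myh1* and *Myh4* had r = 0.39 and 0.47 in the same order, and *Myh2* was not close to either, with r = -0.19 and -0.072 for *Myh4* and 0.11 and 0.27 for *Myh1*. *Myh7* and *Myh4*, the slow and the fastest isoform, had r = -0.46 without slide 1 and -0.53 within slides (exact p = 0.315). Both values include Norm replicate 5, the lowest array in *Myh7*, whose *Myh4* ratio was the highest outside slide 1. Without Norm replicates 5 and 12, but with slide 1, r was 0.40, and within Hypox alone it was -0.11. No negative relation apart from that mouse is read. Within slides 5 of the 28 pairs had a p under 0.05 and 0 passed after adjustment.

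**Figure D3:**
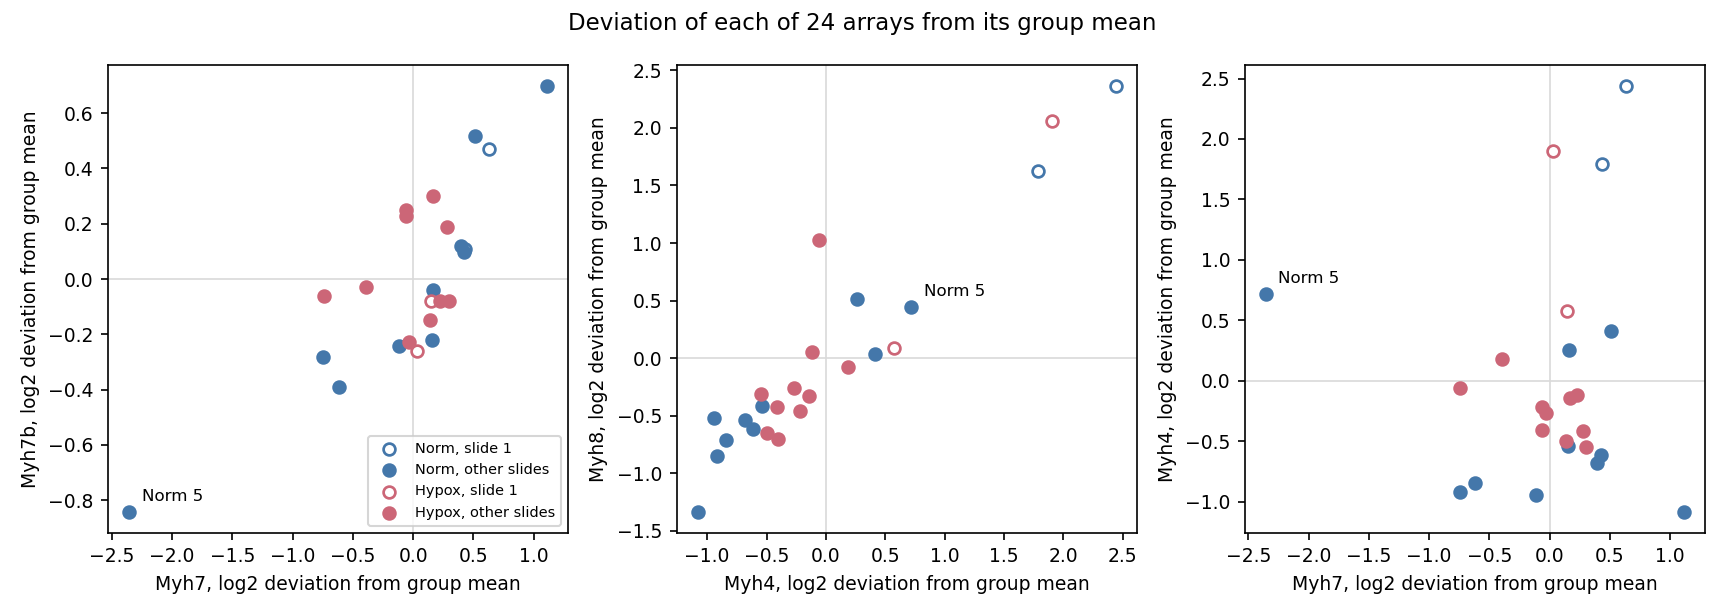
Deviation of each of 24 arrays from its group mean, in log2 units, for *Myh7* against *Myh7b*, *Myh4* against *Myh8* and *Myh7* against *Myh4*, with Norm in blue, Hypox in red and open circles for slide 1. *Myh7* and *Myh7b* rise together (r = 0.80), Norm replicate 5 is lowest in both, and the slide 1 arrays spread out along *Myh4* and *Myh8* (base 5937). Whether that *Myh8* probe also binds the *Myh4* transcript was not tested.

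**Figure D4:**
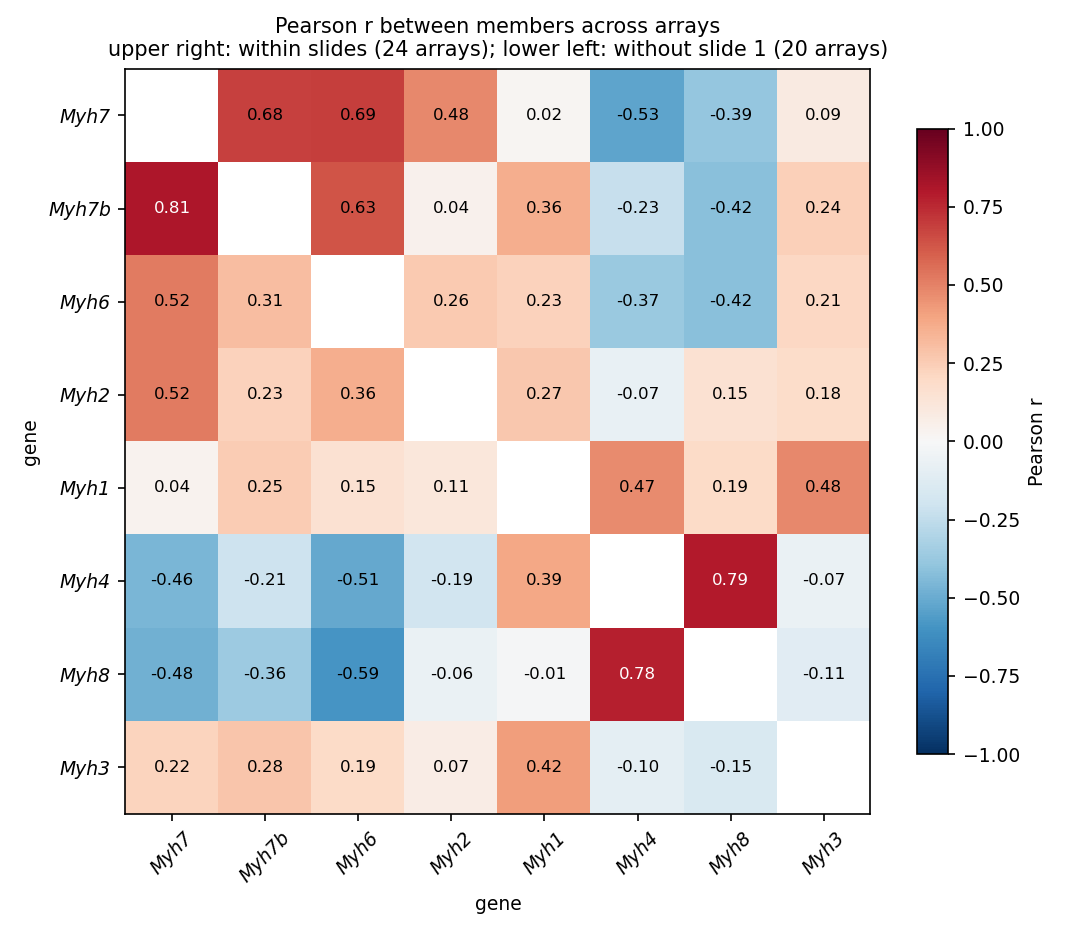
Pearson r between the 8 genes across arrays, as deviations from group means within slides over 24 arrays (upper right) and without slide 1 over 20 arrays (lower left), on a colour scale from -1 to 1. *Myh4* with *Myh8* at base 5937 (0.79 within slides and 0.78 without slide 1), *Myh7* with *Myh7b* (0.68 and 0.81) and *Myh7* with *Myh6* (0.69 and 0.52) are positive on both sides. *Myh4* with *Myh7* is negative on both (-0.53 and -0.46), with Norm replicate 5 included in both. Whether the *Myh8* probe at base 5937 also binds the *Myh4* transcript was not tested.

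Norm replicate 5 stood farthest from the other mice in the slow genes. It had the lowest of 24 values for *Myh7* (-2.90, against a mean of -0.33 ± 0.54 SD in the other 11 Norm mice), *Myh7b* (-1.25) and *Myh2* (-0.61). Its *Myh4* ratio of 2.29 was the highest outside slide 1, and in the processed signals its *Myh4* value of 1.11 was the highest of all 24. The slow partners went with it, since *Tnni1*, *Tnnt1*, *Tnnc1*, *Myl2* and *Myl3* were also lowest in this mouse (-2.10, -2.04, -2.17, -2.34 and -1.56).

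Partner genes of slow and fast fibers were set beside 5 of the isoforms. With all mice included, the slow list varied with *Myh7* and the fast list with *Myh4*. The slow list held thin filament, light chain and calcium-handling genes and also *Mb*, *Myoz2* and *Csrp3*. Of its 11 genes, 11 had a positive r with *Myh7* within slides (median 0.76, range 0.20 to 0.89), against a median of -0.012 over all genes. *Myl2*, the slow regulatory light chain (0.89), *Tpm3*, a slow tropomyosin (0.85), and *Tnnc1*, the slow troponin C (0.84), were highest. For *Myh4* 11 of 12 fast partners were positive within slides (median 0.67), with *Mybpc2*, the fast myosin-binding protein C, at 0.93 and *Tnnt3*, a fast troponin T, at 0.86. *Mylpf*, the fast regulatory light chain, was the exception at -0.13. Its probe averaged 16.4 times background in Cy5, against 2690 for *Tnnt3* and 637 for *Mybpc2*. Within slides the median was -0.37 for slow partners with *Myh4*, where *Mb* alone was positive at 0.15, and -0.45 for fast partners with *Myh7*, where *Mylpf* alone was positive at 0.097. Over all arrays, slide 1 included, these medians were 0.086 and 0.025. *Myh2* had medians of 0.34 with the slow and 0.10 with the fast list within slides, and *Myh1* of 0.10 and 0.28. These are descriptions over 24 arrays that share their RNA, slide and depth. They include Norm replicate 5, the lowest array in *Myh7* and also in *Myl2*, *Tpm3* and *Tnnc1*, and were not computed without it. How far they hold among the other mice was not tested.

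Ranked over all 9047 genes measured on every array, the genes most like *Myh7* by r over deviations from group means were *Myl2* (0.89), *Tnnc1* (0.88) and *Hspa2* (0.86), with 0.89, 0.84 and 0.81 within slides. Norm replicate 5 was included in these values. For the fast isoforms this ranking took in the 4 arrays of slide 1, so only the values within slides and without slide 1 are given. For *Myh2* the genes were *Slc2a4*, the insulin-responsive glucose transporter (0.84 within slides and 0.69 without slide 1), *Fabp3*, a fatty acid-binding protein (0.79 and 0.70), and *Atp5k*, an ATP synthase subunit (0.72 and 0.54). For *Myh4* they were *Aldoa* (0.89 and 0.90), *Tnnt3* (0.86 and 0.86) and *Pvalb* (0.85 and 0.83). For *Myh1* they were *Ldha* (0.62 and 0.51), *Aldoa* (0.52 and 0.46) and *Gapdh* (0.61 and 0.52). *Aldoa*, *Ldha* and *Gapdh* encode glycolytic enzymes and *Pvalb* the calcium buffer of fast fibers.

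**Figure D5:**
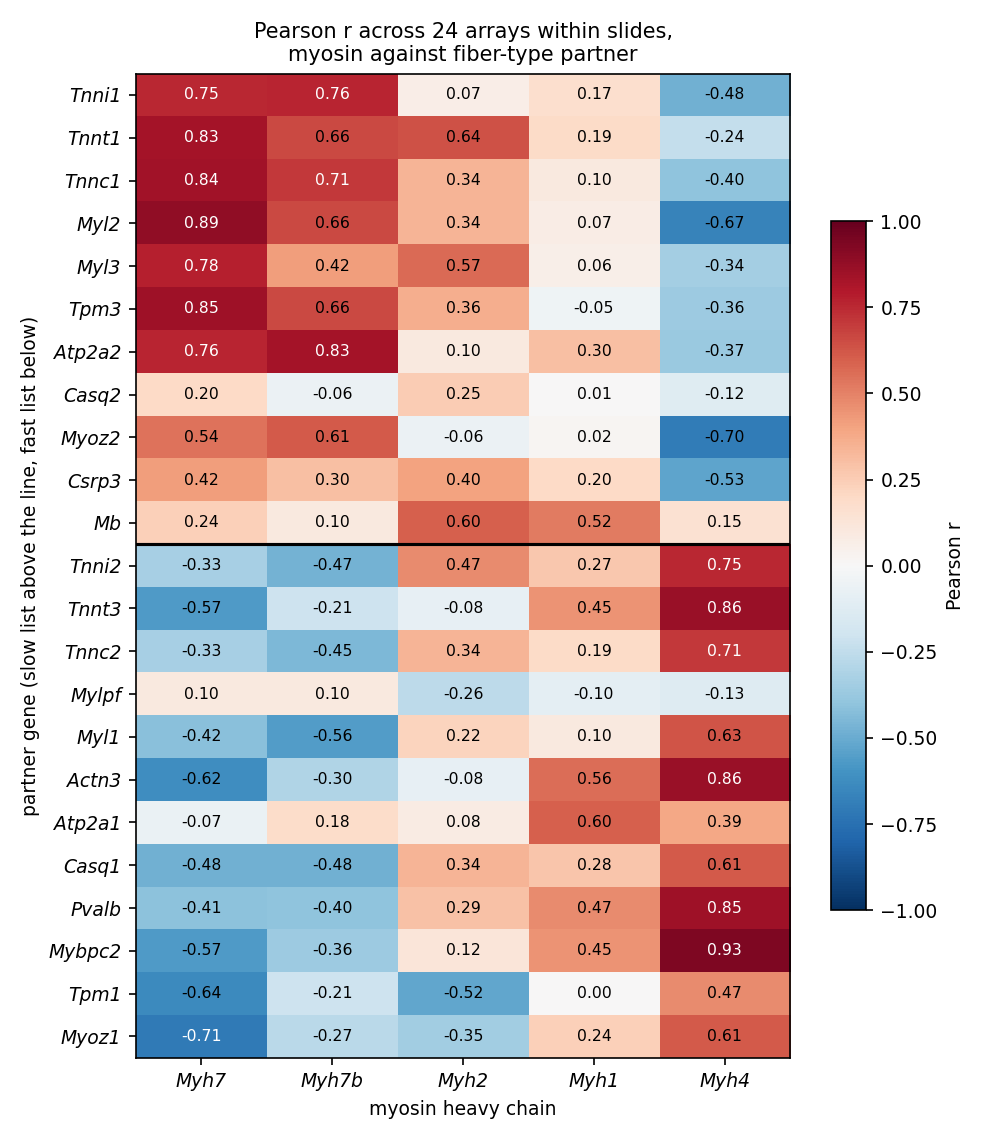
Pearson r across 24 arrays, within slides, between 5 myosin heavy chains (columns) and 11 slow and 12 fast partner genes (rows, above and below the line), on a colour scale from -1 to 1. The slow block is positive for *Myh7* (median 0.76) and, apart from *Casq2* (-0.06), for *Myh7b* (0.66). The fast block is positive for *Myh4* (0.67) apart from *Mylpf* (-0.13). All values include Norm replicate 5.

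Between Hypox and Norm, the slow partners stood with *Myh7* and *Myh7b*. Of the 11 slow partners 10 were higher and 1 lower, 3 passed 0.05 without adjustment, all of them higher, against 7.17% of all genes, and the median log2 fold change was 0.30, against 0.029 for all genes. Without Norm replicate 5 this list had 8 higher and 3 lower, again 3 past 0.05 against 11.2% of all genes, and a median of 0.18. Without slide 5, which holds that array, the median was 0.16 with 2 past 0.05 against 8.98% of all genes. *Tnni1*, the slow troponin I, averaged -0.95 ± 0.58 over the Norm mice and -0.34 ± 0.22 over the Hypox mice (SD, n = 12 each), with a log2 fold change of 0.61 (standard error 0.16, limma p = 0.000892, adjusted p = 0.0977). The difference was positive on 5 of 6 slides and came to 0.51 (p = 0.00126) without Norm replicate 5. With median centring *Tnni1* missed 0.05 (0.86, limma p = 0.0525). *Tnnc1* (0.44, p = 0.0221, adjusted p = 0.303) and *Casq2*, the slow and cardiac calsequestrin (0.27, p = 0.0111, adjusted p = 0.252), were the others. *Tnnc1* missed 0.05 with median centring (p = 0.139) and without slide 2 (0.33, p = 0.116) or slide 5 (0.27, p = 0.112), and *Casq2* with processed signals (p = 0.0871), with median centring (p = 0.0779) and without slide 2 (p = 0.0656).

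Of the 12 fast partners 3 were higher and 9 lower, and 1 passed without adjustment, against 12.2% of all genes. It was higher, *Mylpf* (log2 fold change 0.36, standard error 0.097, limma p = 0.000905, adjusted p = 0.0977, higher on 6 of 6 slides). The median of this list was -0.25, but 0.098 in the processed signals, 0.030 in the Cy5 channel alone and 0.38 in the deposited values, so it has no settled direction. The slow list had medians of 0.43, 0.34 and 0.54 on these scales.

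The thick filament around the motor was mixed. Of 10 tested partners 3 were higher and 7 lower, with 1 higher and 2 lower past 0.05 without adjustment against 12.2% of all genes, and a median of -0.12 (-0.097 in the processed signals and 0.18 in the deposited values). *Ttn*, the titin scaffold that spans the filament, was the 1 gene to pass with adjustment (log2 fold change -0.75, standard error 0.17, limma p = 9.63e-05, adjusted p = 0.0434), but not with median centring (-0.11, p = 0.852) or in the deposited values (-0.28, p = 0.455). *Mylk2*, the kinase of the skeletal regulatory light chain, was lower (-0.29, limma p = 0.00516, adjusted p = 0.197), although it was higher by 0.069 in the deposited values and by 0.25 with median centring. *Mybph*, myosin-binding protein H, was higher (0.52, limma p = 0.00242, adjusted p = 0.146) on 6 of 6 slides, but missed 0.05 with median centring (0.86, limma p = 0.073).

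Of 9 tested genes for myosin folding and turnover 6 were higher and 3 lower with a median of 0.097, and 0 passed 0.05 in limma without adjustment, against 12.2% of all genes. The smallest p-values were those of *Smyd1*, a myosin chaperone partner (0.24, p = 0.110, but 0.017 with the mean of its probes, 0.096 without slide 3 and 0.11 without Hypox replicate 2), and *Trim63*, the ubiquitin ligase MuRF1 (0.31, p = 0.115, but 0.17 without slide 4 and 0.45 with p = 0.0289 without slide 1). Of 18 tested regulators of fiber type 4 were higher and 14 lower with a median of -0.069, against 58.8% higher and a median of 0.029 for all genes. Without adjustment 3 of the 18 passed 0.05, all lower, against 12.2% of all genes in either direction and 5.07% lower. These were *Nfatc1*, a calcineurin-responsive factor (-0.26, limma p = 0.0155, adjusted p = 0.272), *Maf* (-0.25, p = 0.0242, adjusted p = 0.317) and *Tead1*, a CATTCC-binding factor (-0.25, p = 0.0279, adjusted p = 0.336). None of the 3 passed in the deposited values (-0.24, -0.081 and -0.084) or with median centring (-0.0098, 0.12 and 0.11), nor without slide 5 (-0.20, -0.17 and -0.15). With the mean of a gene's probes *Nfatc1* came to -0.16 (p = 0.0534) and *Maf* to -0.11 (p = 0.286). Of the smooth muscle, nonmuscle and other sarcomeric heavy chains 3 of 6 were tested and 0 passed without adjustment, against 12.2% of all genes, with *Myh11* of smooth muscle at -0.27 (p = 0.214, but -0.047 without Norm replicate 2, which is on slide 4) and nonmuscle *Myh14* at -0.053 (p = 0.623).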

How the data were processed

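For each of 24 arrays the authors deposited the spot intensity table written by Agilent Feature Extraction 10.7.3.1 (version per the labels). They also deposited log2 values normalized in GeneMaths XT. Every column of that table had a median of 6.58, and its scaling and use of the Cy3 channel are not given in the sources used here. The descriptions settled the dyes, since the label fields of 5 Hypox samples hold dye names that run on in number.

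From the scanner output, control spots and 7260 outlier readings were left out (0 were saturated). Normexp with an offset of 50 corrected the mean signals, loess within each array normalized the log2 of Cy5 over Cy3, and spots were averaged per probe. Probes were kept with a mean Cy5 over 2 times background and at most 4 arrays without a value. A RefSeq accession named 27235 of 55681 probes, a symbol 3581 and a synonym 565, which left 24300 unnamed and unused among genes. The brightest probe stood for its gene. The precision is set by 12 arrays per group and, for dim genes, by the 9.42% to 37.8% of spots well above background in Cy5.

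Hypox was compared with Norm by limma 3.58.1 in R 4.3.3, without a block, over 9139 genes with Benjamini-Hochberg adjustment, and the method was tested on simulated data. Correlations used 100000 permutations within groups, or all 4096 sign flips within slides, with 1e-05 the smallest p-value the former can give. Each array is an individual mouse per the labels. The genes, lists and tests were chosen with earlier results of these data known. Every myosin gene and probe is named, with the members of a list past 0.05 (up to 4, otherwise the 2 with the smallest p-values) and the 3 genes most like *Myh1*, *Myh2*, *Myh4* and *Myh7*. *Myog*, *Myl4*, *Tnnt2*, *Tpm3* and *Mybpc2* were named after their values were seen. Alternatives were the processed signals, median centring, Cy5 alone, other filters, the deposited values, the t-test of the methods, the mean of a gene's probes, blocks, array weights, and leaving out each array or slide. Figures were drawn with matplotlib 3.10.9.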

Additional observations from a re-analysis of the deposited data

How the results depend on the processing

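*Myh7* (0.11 to 0.85), *Myh7b* (0.15 to 0.46) and *Myh3* (0.27 to 0.68) had a positive log2 fold change under every alternative run (18, 18 and 19), and *Myh7* passed 0.05 in 0 of 18. *Myh7b* no longer passed with processed signals (0.41, p = 0.121), median centring (0.46), Cy5 alone (0.18), the methods' t-test on the ratios (0.27, p = 0.0637), or without slide 2 (0.19), 3 (0.23) or 5 (0.15). *Myh3* no longer passed with processed signals (0.68, p = 0.0521), median centring (0.50), deposited values (0.37 by limma and by the methods' t-test), the methods' t-test on the ratios (0.38, p = 0.0510), or without slide 1 (0.40), 5 (0.30) or 6 (0.27). *Myh6* passed in the deposited values (-0.23, both tests) and without slide 5 (-0.22), and turned to 0.033 with median centring. *Myh2* turned positive with processed signals (0.048), median centring (0.54), Cy5 alone (0.053), deposited values (0.37, both tests) and without slide 1 (0.011). Median centring and the deposited values (both tests) turned *Myh1* to 0.38 and 0.20, *Myh4* to 0.26 and 0.073, *Myh8* to 0.42 and 0.24, *Mylk2* to 0.25 and 0.069 and *Myh14* to 0.28 and 0.11, and median centring turned *Maf* to 0.12 and *Tead1* to 0.11. *Myh14* also turned to 0.0034 and 0.0020 without Hypox replicates 1 and 2. The cause was not tested.

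*Myh1* passed 0.05 with the slide block (-0.26, p = 0.00984), with array weights (-0.27) and without slide 1 (-0.19). *Myh4* passed with the slide block (-0.59, p = 0.00333), with array weights (-0.68), in Cy5 alone (-0.21) and without slide 1 (-0.41). *Myh8* passed with the mean of its probes (-0.48) and for the probe at base 477 (-0.53). Leaving out single arrays gave log2 fold changes of 0.16 to 0.48 for *Myh7*, 0.19 to 0.33 for *Myh7b*, -0.18 to -0.11 for *Myh6*, -0.28 to -0.019 for *Myh2*, -0.33 to -0.16 for *Myh1*, -0.76 to -0.37 for *Myh4*, -0.61 to -0.21 for *Myh8* and 0.26 to 0.44 for *Myh3*, with *Myh7b* past 0.05 in 10, *Myh3* in 19 and *Myh6* in 3 of 24 fits, and *Myh1* and *Myh4* in 1 each (without Hypox replicate 4, p = 0.0256 and 0.0265).

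The labels give both groups the numbers 1 to 12, but same-numbered mice mostly did not deviate together (r from -0.205 to 0.514, over 0.1 in 3 of 12 pairs). These correlations cannot show whether mice were matched by number, and the main test used no pairs. With the replicate block *Myh7b* no longer passed (0.27, p = 0.0771), *Myh1* (-0.26, p = 0.0242) and *Myh4* (-0.59, p = 0.0261) passed, and 18 genes of all passed after adjustment.

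Over all genes 1118 passed without adjustment, and 32 with median centring, 732 with Cy5 alone, 488 and 516 in the deposited values by limma and the methods' t-test, 1939 with no filter, 1718 with array weights and 974 to 1289 with single arrays left out. After adjustment 31 passed, and 66 with processed signals, 0 with median centring, 13 with Cy5 alone, 1 and 1 in the deposited values, 9 with the methods' t-test on the ratios, 8 with no filter, 70 with the slide block, 281 with array weights, 18, 4, 1, 1 and 10 without slides 2 to 6, and 4 to 53 with single arrays left out.

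Over all 24 arrays 7 of 28 pairs of myosins had an adjusted p under 0.05, and within slides 0. Among the relations not read over all arrays, that of *Myh7* with *Myh4* turned from 0.0090 to -0.53 within slides, -0.11 within Hypox, -0.49 with processed signals, -0.45 in Cy5 alone and -0.46 without slide 1. *Myh2* with *Myh4* turned from 0.61 to -0.072 within slides, -0.52 with processed signals, -0.15 in Cy5 alone and -0.19 without slide 1. *Myh2* with *Myh8* turned from 0.63 to -0.50 with processed signals and -0.063 without slide 1, *Myh1* with *Myh4* from 0.88 to -0.21 with processed signals, and *Myh1* with *Myh8* from 0.76 to -0.41 with processed signals, -0.20 in Cy5 alone and -0.0087 without slide 1. Leaving out slide 1 and reading the other probes were chosen after seeing the data. *Myh6* and *Myh11* have no value with a filter of 3 times background.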
